A study of Eutrema with 12 samples.

Results

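The array clones described here are 264 cDNAs of Thellungiella salsuginea whose leaf transcript ratio was high in field plants of 2005 and close to that of cabinet plants in 2003. They were chosen by their measured values among 4042 clones whose names begin with cld, drt or slt, and make up 6.53% of these clones and part of 4279 cDNA names on the array. For the choice, the log2 ratio of field over cabinet intensity was centred on the median of each array and averaged over the spots of a clone, over both arrays of a plant and over the 3 plants of a year. A clone was taken when its 2005 mean was at least 1 (2-fold), all 3 plants of 2005 lay above 0, and its 2003 mean lay within 1.5-fold of cabinet in either direction.

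Transcripts were measured in cauline leaves of single, unpooled Yukon plants of the Yukon ecotype, 3 from 2005 (A, B and C) and 3 from 2003 (A, B and C), and compared on the arrays with the same tissue of plants grown for 12 weeks in a cabinet. The cabinet plants had a day of 21 h, warm days and cool nights and no stress treatment, and the field plants stood under ambient conditions in a wet year (2005) and a dry year (2003). Each plant was hybridised on 2 arrays with the dyes exchanged, which gives 12 arrays. The mRNA of field plants was amplified before labelling and that of cabinet plants was not, in both years. One plant of 2005 goes by 2 letters in the records, C and D, and C is used here. Nothing in the sources says whether 1 cabinet RNA served several field plants, so how far the spread between cabinet plants is part of the values below is unknown.

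Thellungiella salsuginea is a wild crucifer related to Arabidopsis that tolerates salt, drought and freezing, and cauline leaves are those borne on its flowering stem. The spots carry cDNAs cloned from plants under stress, and on an array of 2 colours the field and cabinet transcripts compete for the same spot, so that the ratio of their signals gives a relative abundance and not a level. A ratio from whole leaves cannot tell fewer cells of a type from less RNA per cell. The clone names are not paired with genes in the files, so the members are given by clone name, and what they encode is not stated.

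Over the 12 arrays, the median cDNA spot had a signal of 7.40 to 26.5 times its local background in the field channel and 7.85 to 35.4 times in the cabinet channel. The array medians of the uncorrected log2 ratio ran from -0.88 to 0.09, and these were set to 0 before the clones were chosen. Of the members, 258 were spotted 3 times side by side on each array and 6 were spotted 6 times. No value below is a test of the members, because the choice already used the ratios of both years.

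Of the 4042 clones, 447 were high in 2005 by these limits. In 162 of them the 2003 mean lay above the limit of 1.5-fold and in 21 it lay below, which left the 264. With the years exchanged, 95 clones were high in 2003 and near cabinet in 2005. A further clone had the means of a member but a 2005 plant that was not above 0. Just inside the 2005 limit lay cld28_c02, with a mean of 1.001 in 2005 and 0.09 in 2003 on the scale of the choice, and just outside it lay cld4_c09, with 0.9997 in 2005 and 0.27 in 2003. At the upper 2003 limit, slt14_d11 was inside with 1.46 in 2005 and 0.58 in 2003, and cld9_f12 was outside with 1.42 in 2005 and 0.59 in 2003. At the lower 2003 limit, cld16_f08 was inside with 1.07 in 2005 and -0.5816 in 2003, and slt13_e08 was outside with 1.04 in 2005 and -0.5852 in 2003. The limits thus cut through a continuous cloud of clones.

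**Figure D1:**
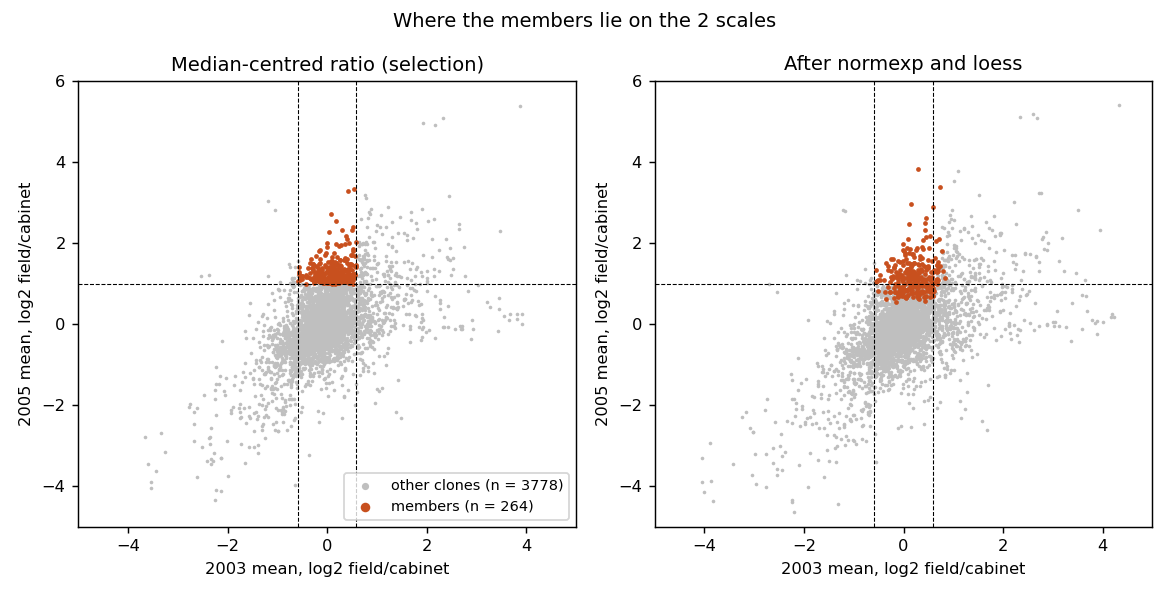
Each point is 1 of 4042 clones, with its 2003 mean log2 ratio of field over cabinet on the x axis and its 2005 mean on the y axis, and the 264 members are coloured. On the left is the median-centred scale that chose them and on the right the same clones after normexp and loess, where dashed lines mark the same limits and 146 members still lie within them.

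All ratios from here on are log2 ratios of field over cabinet after normexp background correction and loess within each array, unless the scale of the choice is named. On this scale the median member had a 2005 mean of 1.13, a 2.19-fold excess in field leaves, and a 2003 mean of 0.19, or 1.14-fold, while the medians over all clones were -0.04 in 2005 and -0.01 in 2003. The 2005 means of the members ran from 0.56 to 3.82 and their 2003 means from -0.56 to 0.83. Most were moderate, with 157 members between 2-fold and 4-fold in 2005, 14 at 4-fold or more and 2 at 8-fold or more. The 93 members under 2-fold on this scale and the 28 above the 1.5-fold limit of 2003 fell out of the limits through the normalization, and 146 of 264 still met all of them.

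The brightness of a clone went along with its membership. In the cabinet channel the median member had 33.4 times the signal of its background and the median clone 20.7 times. When the clones were divided into 4 groups of like size by that brightness, members made up 3.07% of the dimmest group, 5.05% and 6.73% of the groups between, and 11.3% of the brightest. After normexp and loess, where loess acts on the mean brightness of both channels, the same limits took in 4.15%, 5.64%, 5.15% and 3.26% of these groups, from dimmest to brightest. In the brightest group the median clone had a 2005 mean of -0.07 on the scale of the choice and -0.30 after normexp and loess, and 33 of its 114 members kept within the limits. In the median, normexp and loess together moved a member's mean by 0.15 downward in 2005 and by 0.09 upward in 2003. In 32 members at least 1 spot was saturated, against 210 of all 4042 clones.

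**Figure D2:**
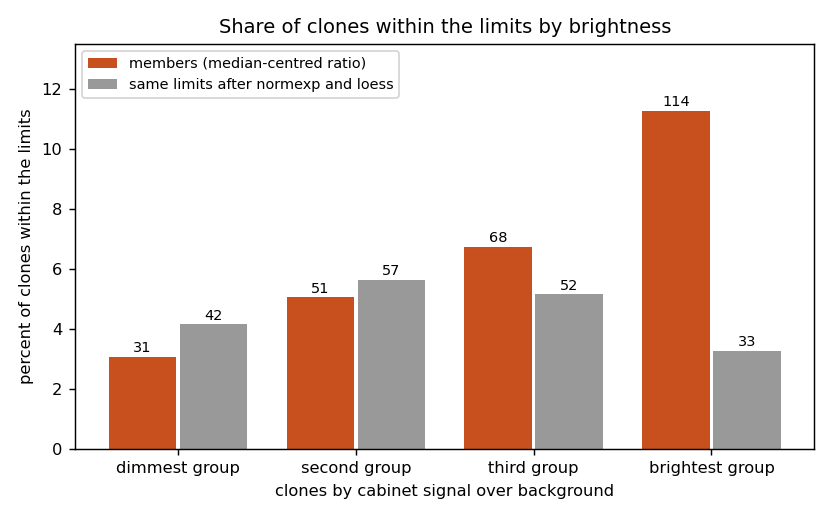
The bars give the percentage of clones within the limits in each of 4 groups of clones by cabinet signal over background, on the median-centred scale that chose the members and after normexp and loess, with the number of clones above each bar. The share of members is 11.3% in the brightest group, and after loess it is 3.26% there.

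Prefixes differed in their share. Members made up 8.61% of cld clones (170 of 1974), 3.91% of drt clones (31 of 793), 5.66% of drtg clones (27 of 477), 4.13% of slt clones (27 of 653) and 6.21% of sltg clones (9 of 145). After loess the same limits held 6.54% of the cld clones, 2.77% of drt, 2.52% of drtg, 1.99% of slt and 5.52% of sltg. The cld clones had the highest share on both scales, a difference between prefixes that was not tested. The median clone had a cabinet signal of 19.8 times background among cld clones, 19.3 among drt, 29.3 among drtg, 20.3 among slt and 26.1 among sltg clones, and the part of brightness in these shares was not tested. Members came from 62 of 65 plates and 47 of 48 spotting blocks. Their share was uneven between blocks, from 0 of 88 clones in the lowest to 14 of 80 (17.5%) in the highest, which was not tested. Among plates with at least 40 clones, the share of members ran from 0 to 16.9%. What the prefixes stand for is not stated in the sources.

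The 3 plants of 2005 did not contribute alike. The median member stood at 0.87 in plant A, 1.49 in plant B and 1.04 in plant C of 2005. Plant B gave the highest ratio in 198 of 264 members, where it did so in 36.8% of all clones, and plant A the lowest in 152 members (57.6%), against 35.3% of all clones. Members that were at least 1.5-fold above cabinet numbered 226 in plant A, 256 in plant B and 231 in plant C, and 77 members were at least 2-fold above cabinet in all 3 plants. On the scale of the choice, the same limits took in 177 clones without plant B of 2005, 337 without plant A and 314 without plant C, fewest without plant B.

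In 2003 the median member stood at -0.01 in plant A, 0.35 in plant B and 0.31 in plant C, so the year mean near cabinet covered different plants. Plant C lay above 0 in 86.7% of members, plant B in 70.1% and plant A in 48.9%, where the shares over all clones were 48.8%, 50.2% and 49.9%. All 3 plants of 2003 were above cabinet in 87 members, and all 3 below in 3 members. The commonest mixed pattern, with plant A below and plants B and C above, held 69 members. In 86 of 264 members all 3 plants of 2003 lay within 1.5-fold of cabinet, and in the other 178 at least 1 plant lay beyond it. The median member spanned 0.85 between its highest and lowest plant of 2003, against 0.71 for all clones, and 0.64 between its plants of 2005, against 0.45 for all clones.

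**Figure D3:**
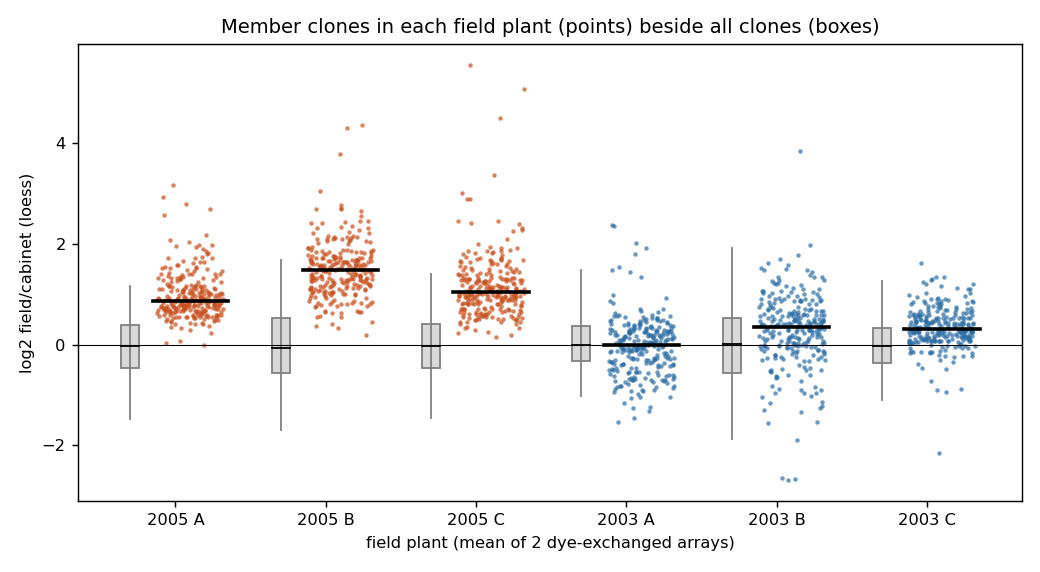
Each point is 1 of 264 members in 1 field plant, as log2 ratio of field over cabinet after loess (mean of 2 arrays), the thick line is the median of the members, and the grey box and whisker give the quartiles and the central 90 percent of all 4042 clones. Members centre between 0.87 and 1.49 in the plants of 2005 and between -0.01 and 0.35 in those of 2003, where plant B is the most scattered.

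Where plants were set against plants, the lowest plant of 2005 lay above the highest of 2003 in 170 members, and the years overlapped in 94. A gap of this kind was seen in 16.8% of all 4279 cDNAs, and the choice itself favours it. Among the 94 overlapping members the highest 2003 plant was B in 54, C in 30 and A in 10, and the lowest 2005 plant was A in 49, C in 39 and B in 6. Between plants of the same letter, 2005 lay above 2003 in 257 members for letter A, 247 for B and 252 for C. The choice favours this order too, its share over all clones was not counted, and no agreement is read from it.

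The limma fit over all cDNAs (Benjamini-Hochberg adjusted p under 0.05 and at least 1.5-fold) called 223 of 264 members higher in 2005 than in cabinet plants, where the background over all cDNAs was 16.4%. In 2003 it called 7 members, all higher than in cabinet plants, against a background of 17.4% in either direction. In the direct comparison of years, 17 members were called higher in 2005 than in 2003, against a background of 0.771%. With the plant letter as a replicate block the direct comparison called 76 members, against a background of 3.39%. Since the members were taken for these very ratios, nothing is read from these counts. Without plant B of 2005 the first count was 83 and without plant C it was 109, and the shares of all cDNAs in these fits are not given. Leaving out any 1 plant of 2005, or plant A of 2003, limma's direct comparison called 0 members, with 113 to 153 of them, and 687 to 999 of all 4279 cDNAs, at an unadjusted p under 0.05.

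A near-cabinet ratio in 2003 did not always rest on a bright signal. The array holds 87 spots without a name, whose content is not given, and on the 2003 arrays the brightest 5 percent of their readings began at 12.1 times background in the field channel and 13.8 times in the cabinet channel. This level was chosen as a yardstick after the values had been seen. In 48 of 264 members (18.2%) both channels of the 2003 arrays lay at or under it, against 32.0% of all clones, and on the 2005 arrays 2 members did (0.758%), against 14.5% of all clones. A 2003 ratio near 0 in these 48 members is not taken as a likeness between field and cabinet leaves. Lying under the level does not make a ratio unmeasured. Among the 48, cld19_g02 gave 1.91 in plant A and -1.54 in plant B of 2003, and sltg1-53 gave 1.79 and -1.89. The median 2005 mean of the 48 was 1.41, and that of the other 216 members 1.07. The 216 members with at least 1 channel above the level had a median 2003 mean of 0.18 and the 48 dim ones 0.30. In 23 members the cabinet channel of the 2005 arrays was at or under the like level of that year, 7.73 times background, so that the size of their 2005 ratio is uncertain.

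The channels were also looked at apart. Over the 264 members the cabinet channel was 35.4 times background on the 2005 arrays and 34.9 times on the 2003 arrays in the median, while the field channel was 85.9 times on the 2005 arrays and 29.1 times on the 2003 arrays. In 33 members, 16 of the 48 dim ones among them, the cabinet signal itself was at least 2-fold brighter on the 2005 arrays. After loess and quantile scaling of the average intensities, the field channel was higher on the 2005 arrays in 217 members, with a median difference of 0.87 on the log2 scale, and the cabinet channel was higher in 121, with a median difference of -0.13. Of all 4042 clones, 1948 were higher in the field channel (median difference -0.05) and 2046 in the cabinet channel (0.01). Across the members the year differences of both channels correlated with Pearson r = 0.94 (264 clones, channels that share spots and slides), and across all clones with r = 0.84. The choice limits how far these differences of both channels can part in a member, so nothing is read from the higher r of the members. Signals of a spot in both colours thus moved together between the slides of 2005 and those of 2003, and their part in the ratios of the members was not tested.

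**Figure D4:**
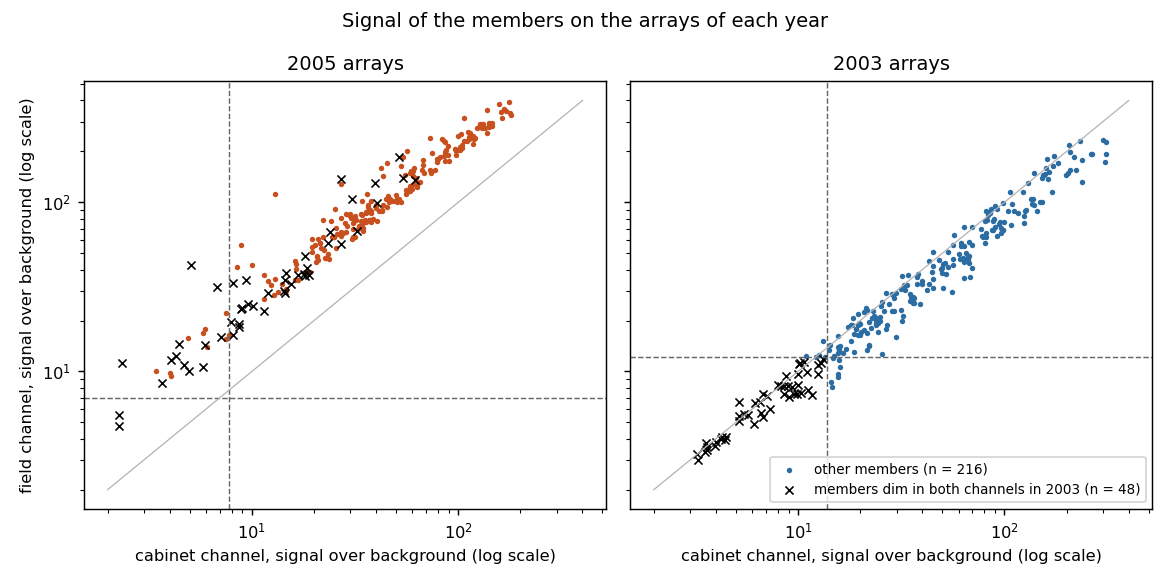
Each mark is 1 of 264 members, with the signal over local background in the cabinet channel on the x axis and in the field channel on the y axis (both log scales), on the 2005 arrays at the left and the 2003 arrays at the right. Dashed lines mark the 95th percentile of the spots without a name, the grey line marks equal channels, and the crosses are the 48 members at or under both dashed lines in 2003, of which all but cld19_d12 are brighter in the field channel on the 2005 arrays.

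The 6 members with the highest 2005 means were cld9_g09, cld20_f01, cld5_a01, cld28_c01, cld13_h08 and cld9_e04. The ratios of cld9_g09 were 3.17, 3.79 and 4.498 in plants A, B and C of 2005, against 0.26, 0.46 and 0.14 in plants A, B and C of 2003. Its means were 3.82 ± 0.66 in 2005 and 0.29 ± 0.16 in 2003 (SD, n = 3 each). Every plant of 2005 stood far above every plant of 2003, but the 2 arrays of plant A of 2005 gave 0.84 and 5.51, the widest gap between dye orientations of any member. It was also one of the dim members, at 42.7 times background in the field channel and 5.09 times in the cabinet channel on the 2005 arrays, against 3.80 and 3.99 times on the 2003 arrays. The cabinet signal of 2005 was under the level of the spots without a name, so the size of its 2005 ratio, and with it its first place, is uncertain.

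The ratios of cld20_f01 were 2.93, 4.31 and 2.90 in plants A, B and C of 2005, against 0.43, 1.43 and 0.34 in plants A, B and C of 2003. The groups did not overlap, and plant B was the highest in both years. Its means were 3.38 ± 0.81 in 2005, a 10.4-fold excess, and 0.73 ± 0.61 in 2003 (SD, n = 3 each), which is above the 1.5-fold limit after loess. Both channels of both years were above the spots without a name, with 113 times background in the field channel and 13.0 times in the cabinet channel on the 2005 arrays, against 20.8 and 18.4 times on those of 2003. The 4 clones most like it over the 6 plants were the members cld16_f08, cld23_a05 and drt13_f07 and the clone cld2_e10, each with Pearson r = 0.99 and at lower ratios.

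A pair of members was high in plants A and C of 2005 but not in plant B. Clone cld28_c01 gave 2.79, 0.33 and 5.56 in plants A, B and C of 2005, against 0.59, 1.06 and 0.11 in those of 2003. Clone cld13_h08 gave 2.58, 0.19 and 5.08 in plants A, B and C of 2005, against -0.24, 1.49 and 0.08 in those of 2003. In both, plant C of 2005 stood highest and plant B of 2005 lay below plant B of 2003, so the years overlapped. Their 2005 means, 2.89 ± 2.62 and 2.62 ± 2.44 (SD, n = 3 each), thus stand for 2 of 3 plants. Both clones were dim on the 2003 arrays, and their cabinet channels on the 2005 arrays were at 2.36 times background in cld28_c01 and 6.75 times in cld13_h08, under the level of the spots without a name. Their profiles were alike with r = 0.98 over the 6 plants, and drtg1-29, which is not a member, followed cld13_h08 with r above 0.99.

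Clone cld9_e04 gave 2.04, 2.55 and 2.89 in plants A, B and C of 2005, against 1.35, -0.66 and 0.60 in plants A, B and C of 2003. The groups did not overlap, and its means were 2.50 ± 0.43 in 2005 and 0.43 ± 1.02 in 2003 (SD, n = 3 each). The member cld26_f07 had nearly the same pattern, with r = 0.99 over 6 plants and every plant within 0.493.

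Clone cld5_a01 was among the highest of 2005 and the most scattered of 2003. It gave 2.70, 4.36 and 1.82 in plants A, B and C of 2005, against -1.23, 3.85 and -2.15 in plants A, B and C of 2003. Plant B was the highest of both years, and in 2003 it stood above the plants A and C of 2005 while its fellow plants lay well below cabinet. The 2003 mean of 0.16 ± 3.23 (SD, n = 3) is therefore no level that any plant had. The arrays of each plant differed by less than the plants did, at 4.05 and 3.65 for plant B of 2003 and -2.05 and -2.25 for plant C of 2003, and the signal was above the spots without a name in both years.

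The same limit on the mean also took in members with an opposite split. In cld23_f06 the ratios were 1.65, 1.55 and 1.33 in plants A, B and C of 2005, against 2.38, -2.69 and 0.52 in plants A, B and C of 2003. In cld27_h07 they were 1.498, 1.70 and 1.31 in plants A, B and C of 2005, against 2.36, -2.67 and 0.64 in those of 2003. In cld27_e01 they were 1.99, 1.92 and 1.54 in plants A, B and C of 2005, against 2.01, -2.65 and 0.65 in those of 2003. Plant A of 2003 was as high as the plants of 2005 or higher, and plant B of 2003 was several-fold below cabinet, so the years overlapped in all 3 clones while the 2005 plants lay close together. Their 2003 means were 0.07 ± 2.57, 0.11 ± 2.56 and 0.00 ± 2.40 (SD, n = 3 each). The cabinet channel of cld27_e01 was dim on the 2005 arrays, at 5.92 times background.

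These profiles nearly coincided. Every plant of cld23_f06 lay within 0.155 of cld27_h07, and every plant of cld27_e01 within 0.491. Counted over all members, 6 had plant A of 2003 at least 2-fold above cabinet and plant B of 2003 at least 2-fold below (cld19_g02, cld23_f06, cld27_b11, cld27_e01, cld27_h07 and sltg1-53), and 35 of all 4042 clones did. Clone cld5_a01 was the 1 member with the reverse split, which 8 of all clones showed. These 7 clones were picked out after their values had been seen, and of them cld19_g02 and sltg1-53 were dim in both channels of the 2003 arrays. Whether like profiles come from clones of the same transcript cannot be told from the files.

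The 4 members that stayed closest to cabinet in every plant of 2003 were cld13_f07, cld3_b07, cld26_d12 and cld17_e07. Clone cld13_f07 gave 1.31, 1.66 and 1.11 in plants A, B and C of 2005, against 0.01, 0.15 and 0.03 in plants A, B and C of 2003. Clone cld3_b07 gave 0.93, 1.32 and 1.38 in plants A, B and C of 2005, against -0.00, 0.10 and -0.17 in those of 2003. Neither overlapped between years, and both were dim on the 2003 arrays, cld13_f07 at 3.36 times background in the field channel and 3.52 times in the cabinet channel, against 34.7 and 14.4 times on the 2005 arrays.

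The other 2 were bright in both years. Clone cld26_d12 gave 0.73, 1.10 and 0.96 in plants A, B and C of 2005, against 0.19, 0.13 and 0.17 in plants A, B and C of 2003. Its groups lay apart, with means of 0.93 ± 0.19 in 2005 and 0.16 ± 0.03 in 2003 (SD, n = 3 each), and its signals were 55.5 times background or more in both channels of both years. Clone cld17_e07 gave 1.24, 0.38 and 0.49 in plants A, B and C of 2005, against 0.19, -0.05 and 0.06 in those of 2003. Plant A of 2005 was the high one there, but all spots of this clone were saturated on 4 of the 6 arrays of 2005, both of plant A among them. With saturated spots left out, its 2005 mean was 0.29, from plants B and C alone, against 0.70 with them, so its 2005 ratio is not well measured.

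**Figure D5:**
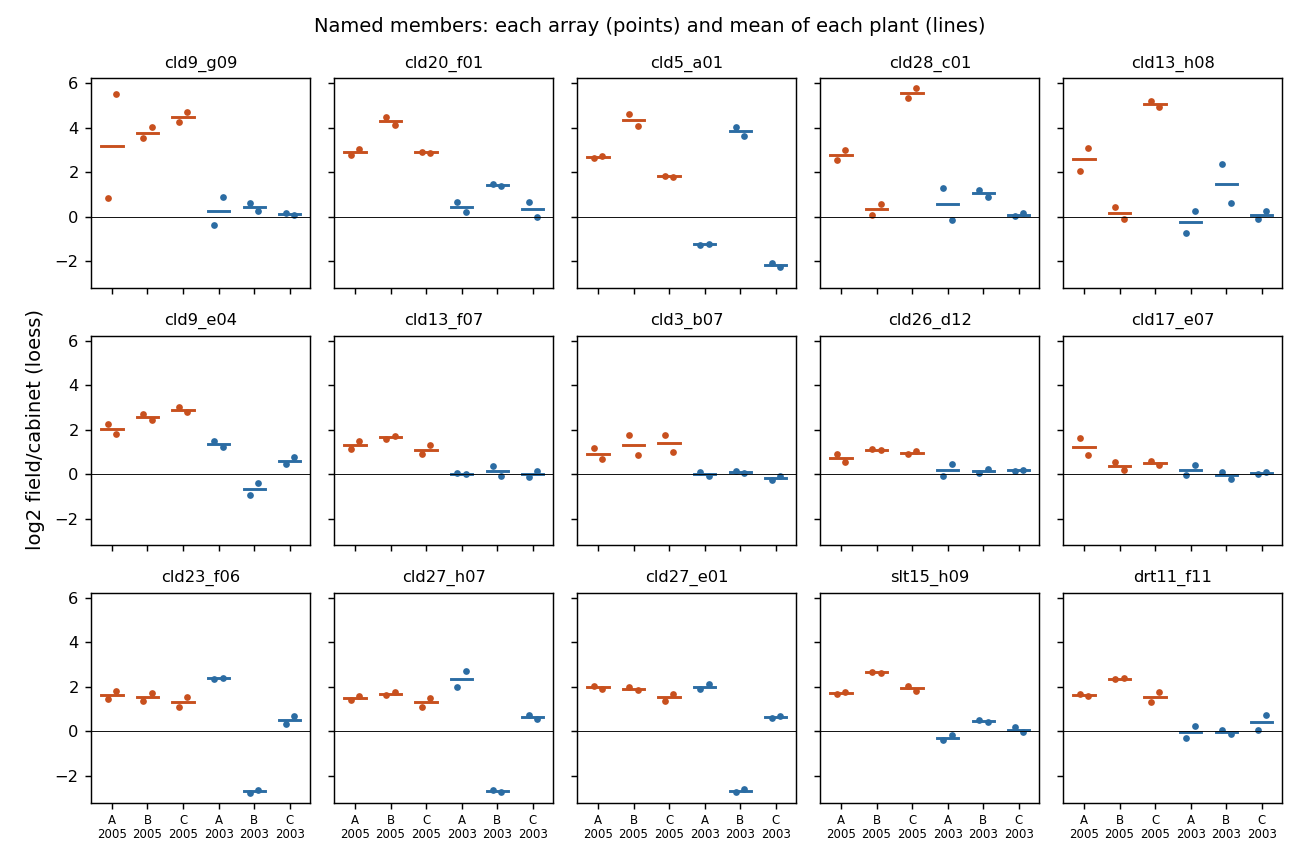
Each panel is 1 member, with the log2 ratio of field over cabinet after loess on the y axis and the 6 field plants on the x axis, 2005 in orange and 2003 in blue, where points are the 2 arrays of a plant and lines their mean. The panels show clones apart in every plant (slt15_h09, drt11_f11), split in 2003 (cld5_a01, cld23_f06, cld27_h07, cld27_e01) or high in plants A and C of 2005 but not in plant B of 2005 (cld28_c01, cld13_h08).

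The pattern in the narrow sense, at least 2-fold above cabinet in each plant of 2005 and within 1.5-fold in each plant of 2003, was met by 25 of 264 members. It was met by 12 of the 216 that were above the level of the spots without a name in at least 1 channel in 2003. These 12 were picked out after their values had been seen. The condition tightens the very ratios that chose the members, and its share over all clones was not counted, so the counts only describe the list. The first by its 2005 mean, slt15_h09, gave 1.72, 2.66 and 1.94 in plants A, B and C of 2005, against -0.28, 0.46 and 0.08 in plants A, B and C of 2003. The next, drt11_f11, gave 1.64, 2.37 and 1.56 in plants A, B and C of 2005, against -0.01, -0.03 and 0.41 in those of 2003. The difference of year means was 2.02 in slt15_h09 and 1.73 in drt11_f11. In both clones the years were well apart and plant B was the highest of 2005.

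Clones from neighbouring wells, cld3_h05 and cld3_h06, were among the 12 as well. Clone cld3_h06 gave 1.89, 2.06 and 1.51 in plants A, B and C of 2005, against -0.07, 0.57 and 0.23 in those of 2003, and cld3_h05 gave 1.74, 2.08 and 1.38 in plants A, B and C of 2005, against 0.10, 0.42 and 0.06 in those of 2003. Both were dim in the cabinet channel of the 2005 arrays, cld3_h06 at 5.82 times background and cld3_h05 at 4.03 times, and so was cld2_d04 at 7.45 times, so the size of their 2005 ratios is uncertain and 9 of the 12 were above the spots without a name on this count too. The other 8 were drt2_e11, cld25_g10, cld17_g04, drtg2-07, cld2_d04, cld5_g01, drt4_e12 and cld25_b10, with 2005 means of 1.21 to 1.51 and 2003 means of -0.06 to 0.49.

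The members stood alike in both dye orientations, which the choice partly builds in because it averaged the arrays of both. With the field RNA in Cy3 the median member stood at 1.17 in 2005 and 0.21 in 2003, and with the field RNA in Cy5 at 1.13 in 2005 and 0.18 in 2003. The 2005 medians over all clones were -0.04 with the field RNA in Cy3 and -0.05 in Cy5. All 264 members lay above 0 in 2005 in both orientations. The arrays of a plant differed by a median of 0.17 to 0.20 in the plants of 2005 and 0.16 to 0.27 in those of 2003, and in 18 members some plant had arrays more than 1 apart. Spots of a member on 1 array spanned a median of 0.07 in 2005 and 0.15 in 2003, less than the spread between plants.

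Of 28 cDNAs that carry a gene name, 1 met the same limits. This was ZEP, the name of zeaxanthin epoxidase, an enzyme of the xanthophyll cycle that also lies on the route to abscisic acid. ZEP gave 0.89, 1.24 and 0.94 in plants A, B and C of 2005, against -0.32, 0.77 and 0.82 in plants A, B and C of 2003, so that plant A alone was below cabinet in 2003 and the groups lay side by side without overlap. Its means were 1.02 ± 0.19 in 2005 and 0.42 ± 0.64 in 2003 (SD, n = 3 each), and its signal was above the spots without a name in both years. A further 13 cDNAs within the limits had names beginning with sc (7 of 135), sd (5 of 38) or ss (1 of 36).

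The 95 clones of the exchanged limits, high in 2003 and near cabinet in 2005, give the counterpart of the members. In the year in which each list was high, the median member spanned 0.64 between its 3 plants of 2005, and the median clone of the exchanged list spanned 1.75 between its 3 plants of 2003. In the other year the spans were 0.85 between the 2003 plants of the median member and 0.62 between the 2005 plants of the exchanged list. After loess the exchanged list had median means of 0.06 in 2005 and 1.95 in 2003, and its median cabinet signal was 17.5 times background. No test of these differences was made, since both lists were taken for the ratios compared.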

How the data were processed

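For each of 12 arrays the authors deposited a scanner table of linear intensity per spot, with the local background beside it and no correction made, and for the series a table of log10 values whose normalization the sources do not state. That table followed the scanner ratio of field over cabinet on every array (r = 0.936 to 0.992, column medians -0.0348 to 0.0112) and served as an alternative. Dyes in the labels and in the scanner headers set channel 1 as cabinet and channel 2 as field. No column of a per-sample value was left out (0).

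Background was corrected with normexp (offset 50) and ratios were normalized by loess within each array in limma 3.58.1 (R 4.3.3), with 1239 control or unnamed spots at weight 0 in loess and then left out. The spots of each clone gave 1 mean per array, and the 2 arrays of each plant 1 mean per plant. One fit over 4279 cDNAs gave each year a mean, with 4 residual degrees of freedom. A cDNA was called at an adjusted p (Benjamini-Hochberg) under 0.05 with at least 1.5-fold. The procedure was tested on simulated data. The number of arrays limits the precision, and p-values cover the spread between these plants only.

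The members and the lists were chosen with earlier results of these data known. By rule the text names the 6 with the highest 2005 mean, the 4 closest to cabinet in every plant of 2003, the 4 with the largest SD in 2003, those next to each limit (by year means) and gene-named cDNAs within the limits. Other clones were named after their values had been seen. Same-lettered plants of different years deviated together from their year means (r = 0.576 for A, 0.243 for B, 0.314 for C over all cDNAs, against -0.33 to 0.05 between letters), which the labels do not explain, so the letter entered as a replicate block in an alternative. Deviations from a year mean cancel out over its plants, so positive values within letters pull those between letters down by construction. Scan days never held both years, and year and scan day cannot be told apart. The letter that ends some clone names on the array was dropped, and its meaning is not given.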

Additional observations from a re-analysis of the deposited data

Results flagged for a closer look

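In 3 members every plant of 2005 lay above cabinet and every plant of 2003 below it, and they were flagged by these signs alone. Their 2003 means were near cabinet by the choice, so no opposite response is read from the signs. How many of all clones had these signs was not counted. The difference between years was not tested for them, since the choice of members used it, and they were picked out after their values had been seen. Clone cld4_e12 gave 1.17, 1.52 and 0.96 in plants A, B and C of 2005, against -0.31, -0.84 and -0.25 in those of 2003, a difference of year means of 1.69, and was dim in both channels of the 2003 arrays. Clone slt9_d09 gave 1.00, 1.16 and 0.99 in plants A, B and C of 2005, against -0.23, -0.07 and -0.05 in those of 2003, a difference of 1.17. Clone slt10_h10 gave 0.74, 0.76 and 0.89 in plants A, B and C of 2005, against -0.35, -0.14 and -0.02 in those of 2003, a difference of 0.97. The median gap between the arrays of a plant of 2003 was 0.27 in A, 0.16 in B and 0.22 in C. All 2003 values of slt9_d09 were smaller in size than this gap, as were those of slt10_h10 in plants B and C.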

How the results depend on the processing

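With the list of members held fixed, the median member stood at 1.04 to 1.26 in 2005 and 0.12 to 0.22 in 2003 over the other settings. Leaving out 1 plant it stood at 0.97 to 1.25 in 2005 and 0.12 to 0.35 in 2003. The choice by the ratios of these same plants largely sets such medians, so no stability is read from them. The 2005 count (223 of 264) ran from 189 to 262 over the other settings, and from 83 to 250 leaving out 1 plant. Without the 48 dim members it was 178 of the remaining 216. The 2003 count (7) was 4 without background correction, 1 with the deposited values, 25 with 12 arrays as independent replicates, 12 with scan day as a random block, 4 without the 48 dim members (a setting added after seeing the data) and 2 to 7 leaving out 1 plant. The count of the direct comparison (17) was 38 without background correction, 55 with arrays scaled to a common spread, 40 with the deposited values, 190 with 12 arrays as independent replicates, 75 with scan day as a random block, 80 at an unadjusted p under 0.01, 7 without the dim members, 76 with the plant letter as replicate block and 0 to 17 leaving out 1 plant. The limits of the choice took in 167 clones on loess ratios without background correction, 184 with normexp and loess, 197 with the deposited values, 256 with normexp and median centring, and 177 to 337 leaving out 1 plant. Without saturated spots the 2005 mean of cld17_e07 was 0.29, against 0.70 with them. The share of all cDNAs called also changes with the setting. In the direct comparison it was 0.771% in the main fit and 3.39% with the plant letter as replicate block, and for the others it is not given. The 2 arrays of a plant are technical repeats, so the counts with 12 arrays as independent replicates overstate the replication. The fit with scan day as a random block also took the 12 arrays as its units, without a term for the plant. Its counts are therefore not on the footing of the main fit by plants. No property of the members is read from these counts. The causes were not tested.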
